A study of Mus musculus with 24 samples.

Results

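Carbonyl reductases, dihydrodiol dehydrogenase and their relatives were followed over 7 mouse tumour cell lines through 10 genes of the 45616 gene names on the array, namely Dhdh, Dhrs2, Dhrs3, Dhrs4, Dhrs7, Cbr1, Cbr2, Cbr3, Akr1b3 and Akr1b8. The genes were picked with their measured levels in these 7 lines already known, in particular those of Dhdh, Dhrs2 and Cbr2, so every value given for them is a description without a test. They were found by matching the RefSeq transcript of each probe to a gene symbol, which gave 15 probes, with 2 probes for each of 5 genes (Dhrs2, Dhrs3, Dhrs4, Cbr2 and Akr1b3). Dhdh, on which much of the description turns, has 1 probe.

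The study profiled RNA of tumour cells that had persisted through dormancy in mice and of their parental cells. Of the 24 single-colour arrays, 17 were melanoma. B16F1-GFP-M (3 arrays, called M here) is the parental B16-F1 mouse melanoma line, and B16F1-GFP-D (4 arrays, D) was recovered from a mouse model of dormancy set up by vaccination with irradiated cells that overexpress GM-CSF. B16F1-GFP-DB#1 (4 arrays), B16F1-GFP-DB#2 (3 arrays) and B16F1-GFP-DB#3 (3 arrays) are a further generation of dormant cells, taken from a brain site. By their names all 5 melanoma lines carry GFP, M included. The other 7 arrays were of the myeloid lines M0 (4 arrays) and J365 (3 arrays). Their labels give the cell type, the name and the tag p20, which is not explained there, and J365 and M0 are compared as named. The paper describes its dormant cells as isolated from syngeneic mouse models, in which host and tumour are of the same strain. It states that the cells were grown in culture before they were analysed. Each condition other than DB is represented by 1 line, so line and condition cannot be told apart. Nothing in the labels says that the arrays of a line came from separate cultures, and standard errors and p-values measure the spread between these arrays, which may be technical.

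All 10 proteins use NADPH or NADH to interconvert carbonyl groups and alcohols. Most belong to the short-chain dehydrogenases and reductases (Dhrs2, Dhrs3, Dhrs4, Dhrs7, Cbr1, Cbr2 and Cbr3), Akr1b3 and Akr1b8 are aldo-keto reductases with a barrel fold, and Dhdh, dihydrodiol dehydrogenase, is a dimeric enzyme of yet another fold that oxidises trans-dihydrodiols of aromatic hydrocarbons to catechols and also acts on D-xylose. Such enzymes detoxify aldehydes and quinones, set the balance of retinal and retinol, and reduce steroids and prostaglandins, and several are targets of the oxidative stress factor NRF2. Melanocytes are a particular setting for them, since pigment synthesis runs through reactive quinones.

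Levels are log2 signals less the 75th percentile of the same array, so a level of 0 is the signal at that percentile, and levels of different probes are not set against each other. One array stood apart. On D replicate 3, 89.9% of probes were well above background, against 43.7% to 53.9% on the other 23 arrays, and differences of the 10 genes between D and M are therefore given with and without it. All 9 melanocyte markers (such as Tyr, Dct and Pmel) were well above background on every melanoma array. Of 9 blood and myeloid markers, 8 or 9 were well above background on every myeloid array, and 1 to 3 on the melanoma arrays other than D replicate 3, which had 7. D replicate 3 also had 6 of 7 fibroblast, 3 of 5 endothelial, 5 of 5 epithelial and 6 of 6 neural and glial markers well above background, against at most 4, 1, 2 and 4 on the other melanoma arrays. The part of this signal in the values of D was not tested beyond leaving the array out. The mean level of the blood and myeloid list ran from -5.20 to -4.47 on the melanoma arrays without D replicate 3, was -2.68 on that array and ran from 1.68 to 2.49 on the myeloid arrays.

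In the RefSeq table of assembly GRCm38.p6, no protein-coding gene lies between Dhrs2 and Dhrs4 on chromosome 14, between Cbr1 and Cbr3 on chromosome 16, or between Akr1b3 and Akr1b8 on chromosome 6. Promoter sequences of 300 bases (250 before and 50 after the start site) were at hand for 8 of the 10 genes, not for Dhdh and Akr1b3. The promoters of Dhrs2, which was higher in D and in every DB line than in M, and of Cbr2, which was lower in all of them, are shown because their levels separated M from the other melanoma lines. They were searched on both strands for TGACNNNGC, the core of the antioxidant response element bound by NRF2, for the E-box CACGTG, for CATGTG, the E-box form that the melanocyte factor MITF also binds, and for the TATA box TATAAA. Capitals mark the matches. None of these motifs contains another.

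Dhrs2, chr14:55221757-55222056, plus strand, GRCm38.p6: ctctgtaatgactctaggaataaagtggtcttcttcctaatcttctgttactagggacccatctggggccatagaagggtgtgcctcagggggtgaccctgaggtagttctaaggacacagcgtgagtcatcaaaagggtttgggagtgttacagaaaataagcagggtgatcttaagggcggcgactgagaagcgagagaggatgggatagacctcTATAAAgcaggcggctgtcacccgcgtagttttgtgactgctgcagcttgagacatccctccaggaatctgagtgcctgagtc
Cbr2, chr11:120731972-120732271, minus strand, GRCm38.p6: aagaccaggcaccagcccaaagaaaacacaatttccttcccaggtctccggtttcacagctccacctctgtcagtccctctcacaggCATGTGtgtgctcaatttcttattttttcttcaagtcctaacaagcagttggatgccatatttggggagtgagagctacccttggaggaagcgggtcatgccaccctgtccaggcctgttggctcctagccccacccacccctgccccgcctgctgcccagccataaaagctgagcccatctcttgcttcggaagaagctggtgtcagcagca

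The Dhrs2 promoter held 1 TATAAA, whose first base lies at position -33 from the start site, and the Cbr2 promoter held 1 CATGTG, at -163. Over all 32851 promoters of the table, 13.6% held TATAAA, 14.2% CATGTG, 12.4% TGACNNNGC and 7.15% CACGTG. Of the 10 promoters of the 8 genes (Dhrs3 has 3 start sites), 2 held TATAAA (the other is that of Akr1b8), 1 held CATGTG, and 0 held TGACNNNGC or CACGTG, which says only that these letters are not in these windows.

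Dhdh was not well above background in M and was so in D and in each of the DB lines. On the 3 M arrays its log2 level was -6.20, -5.45 and -5.64, and its probe was not well above background on any of them. D showed levels of -2.36, -2.18, -1.69 and -2.32, a mean of -2.14 ± 0.31 (SD, n = 4), or -2.29 ± 0.10 (SD, n = 3) without replicate 3. The 4 DB#1 arrays read -2.01, -1.78, -1.45 and -1.45, with a mean of -1.67 ± 0.27 (SD). Every array of D and DB#1 was thus well above background and higher than every M array. In DB#2 the levels were -3.23, -2.72 and -3.05, with a mean of -3.00 ± 0.26 (SD, n = 3). In DB#3 they were -1.97, -1.74 and -1.50, with a mean of -1.74 ± 0.23 (SD, n = 3). DB#2 was the lowest of the 4 dormant lines, and its 3 arrays did not overlap those of D, DB#1 or DB#3, while DB#1 and DB#3 overlapped each other. D overlapped both through replicate 3 (-1.69) alone, and its other 3 arrays lay below every array of DB#1 and DB#3.

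Since M gave no measured level, folds over M set the mean of the brighter line against a floor. On each M array the floor was the faintest signal that counted as well above background or the probe's own signal, whichever was higher. Against this floor Dhdh was 4.48-fold higher in D, 6.19-fold in DB#1, 2.47-fold in DB#2 and 5.92-fold in DB#3. The floor is taken over all probes, so these folds are not strict lower bounds for this probe. The measured log2 differences from M were 3.63 ± 0.26 (SE of the limma fit) for D, 4.09 ± 0.26 for DB#1, 2.76 ± 0.28 for DB#2 and 4.03 ± 0.28 for DB#3. Without D replicate 3 the value for D was 3.48, and on the 3 slides taken singly D less M was 3.36, 3.77 and 3.88. A normexp background correction with an offset of 50 gave 1.02 for D, 1.34 for DB#1, 0.56 for DB#2 and 1.25 for DB#3, still above 0 but far smaller. The processed signals of this probe were 5.71, 7.96 and 6.77 on the M arrays, far below that offset. Adding the offset shrinks such differences by itself, so nothing is drawn from the drop.

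Between the myeloid lines Dhdh ran the other way. M0 had levels of 0.35, 0.13, -0.08 and -0.65, all well above background, with a mean of -0.06 ± 0.43 (SD, n = 4). The 3 J365 arrays gave -4.01, -4.14 and -4.59, none of them well above background. Against the same kind of floor, Dhdh was 17.7-fold lower in J365 than in M0, close to the 18.2-fold of the measured means. The measured log2 difference was -4.19 ± 0.26 (SE), with -4.49, -4.23 and -4.15 on the 3 slides. So D was above M on every array, and J365 below M0 on every array.

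Dhrs2, a short-chain reductase whose human counterpart reduces dicarbonyl compounds, was measured in all 5 melanoma lines and was the second gene that set M apart. In M its levels were 1.63, 0.81 and 1.24, with a mean of 1.23 ± 0.41 (SD, n = 3). D arrays stood at 3.65, 3.27, 2.79 and 3.37, a mean of 3.27 ± 0.36 (SD, n = 4), or 3.43 ± 0.20 without replicate 3, the lowest of the 4. The DB#1 levels were 3.69, 3.72, 4.02 and 3.78, with a mean of 3.80 ± 0.15 (SD). The lowest D array was thus above the highest M array by more than the SD of either line. DB#2 gave 3.64, 3.15 and 3.07, with a mean of 3.29 ± 0.31 (SD, n = 3). DB#3 gave 3.63, 3.20 and 3.21, with a mean of 3.35 ± 0.25 (SD, n = 3). DB#1 lay above D, DB#2 and DB#3 without overlap, though not on the second probe, while D, DB#2 and DB#3 overlapped.

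Relative to M, Dhrs2 was 4.12-fold higher in D (log2 difference 2.04 ± 0.25, SE), 5.96-fold in DB#1 (2.57 ± 0.25), 4.17-fold in DB#2 (2.06 ± 0.27) and 4.34-fold in DB#3 (2.12 ± 0.27). The second probe gave 2.20, 2.44, 1.98 and 2.20 in the same order, so both probes showed differences of like size. Without D replicate 3 the difference of D was 2.20, and on single slides it was 2.22, 1.98 and 1.74. Of the myeloid lines, J365 had the higher Dhrs2 level. The probe was not well above background on any M0 array (-4.52, -5.19, -5.60 and -4.94) and was so on all 3 J365 arrays (-0.46, -0.33 and -0.35). Against the floor in M0 the fold was 13.1 by the first probe and 5.47 by the second, and the measured difference was 4.68 ± 0.25 (SE). Dhrs2 and Dhdh, both higher in D than in M, therefore differed in opposite directions between J365 and M0.

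**Figure D1:**
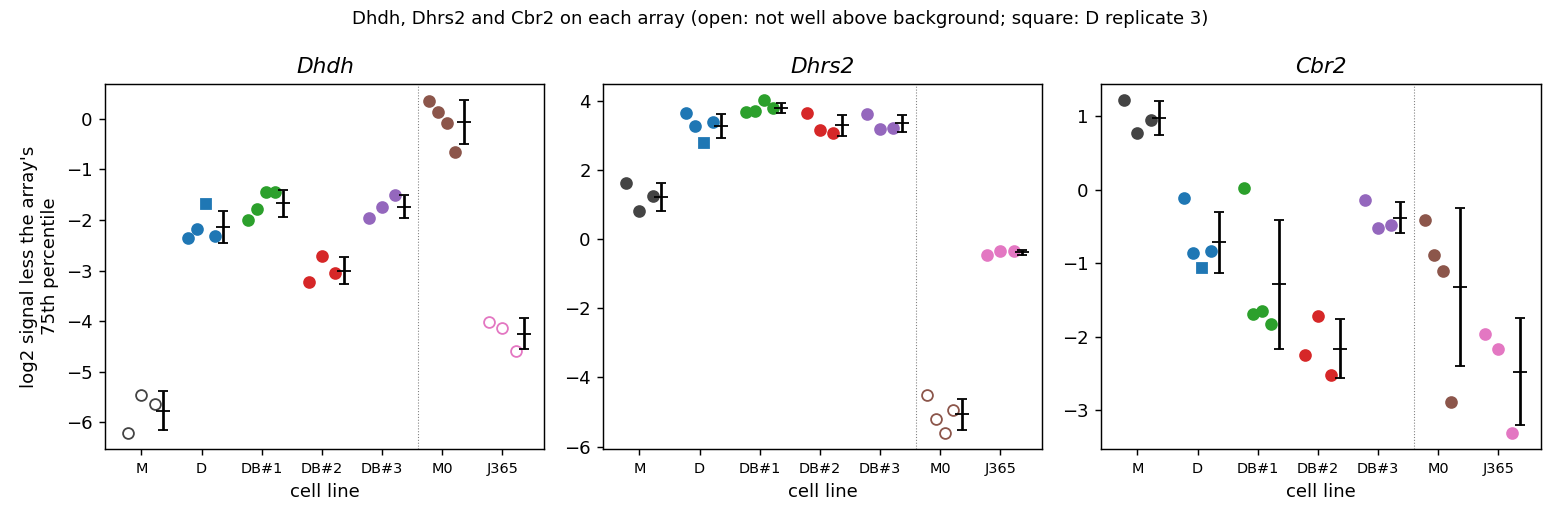
Log2 signal less the array's 75th percentile for Dhdh, Dhrs2 and Cbr2 (vertical axis) on each of the 24 arrays, grouped by cell line (horizontal axis); filled points are well above background, open points are not, the square is D replicate 3, and the black bars give mean ± SD. Dhdh is open in M and J365, Dhrs2 is open in M0, and Cbr2 is highest in M.

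Cbr2, a tetrameric carbonyl reductase known from lung mitochondria, showed the reverse order among the melanoma lines, with M highest. The M arrays read 1.22, 0.76 and 0.95, with a mean of 0.98 ± 0.23 (SD, n = 3). In D the levels were -0.11, -0.86, -1.06 and -0.84, with a mean of -0.72 ± 0.42 (SD, n = 4), or -0.60 ± 0.43 without replicate 3. DB#1 had 0.02, -1.69, -1.65 and -1.83, with a mean of -1.29 ± 0.88 (SD, n = 4). DB#1 replicate 1 lay well apart from the other 3 arrays of its line, and the same array was also the highest of DB#1 on the second Cbr2 probe. DB#2 had the lowest levels, -2.25, -1.72 and -2.52, with a mean of -2.16 ± 0.40 (SD, n = 3). DB#3 had -0.14, -0.52 and -0.49, with a mean of -0.38 ± 0.21 (SD, n = 3). All 14 arrays of the dormant lines lay below the lowest M array.

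The log2 differences of Cbr2 from M were -1.69 ± 0.50 (SE) for D, -2.26 ± 0.50 for DB#1, -3.14 ± 0.53 for DB#2 and -1.36 ± 0.53 for DB#3. Without D replicate 3 the D value was -1.58, and without DB#1 replicate 1 the DB#1 value was -2.70. The second probe, dimmer and well above background on 1 of 3 DB#2 arrays and 3 of 4 DB#1 arrays, gave -1.25 for D, -1.45 for DB#1, -1.94 for DB#2 and -1.23 for DB#3, each smaller than on the first probe. DB#2 lay below D without overlap on both probes, with differences of -1.45 on the first and -0.69 on the second (-1.56 and -0.51 without D replicate 3). Between J365 and M0 the arrays overlapped and the difference was -1.15 ± 0.50 on the first probe against 0.07 on the second. The 2 myeloid arrays without a replicate number in their labels (called replicate 4) had the lowest Cbr2 level of their line, -2.88 in M0 and -3.31 in J365. Among the numbered arrays alone, all 3 of M0 (-0.42, -0.89 and -1.11) were above both of J365 (-1.96 and -2.16), a split seen in the data and absent on the second probe, where these arrays overlapped.

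Cbr1 and Cbr3 are closely related monomeric carbonyl reductases that act on quinones and, in the case of Cbr1, on prostaglandins and anthracyclines. Both had their highest mean in DB#3. Cbr1 levels there were 2.13, 2.19 and 2.48, against 1.34, 1.26 and 1.32 in M. DB#1 lay between them (1.78, 1.78, 1.91 and 1.93), and DB#2 was the lowest of the melanoma lines (1.16, 0.86 and 1.06). The arrays of DB#3, DB#1, M and DB#2 did not overlap with one another, and those of D (1.73, 1.86, 1.40 and 1.85) were all above M and overlapped DB#1. The differences from M were 0.40 ± 0.23 (SE) for D, 0.51 without replicate 3, 0.54 ± 0.23 for DB#1, -0.28 ± 0.24 for DB#2 and 0.96 ± 0.24 for DB#3. Without scaling between arrays the DB#2 value was -0.04.

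For Cbr3 the DB#3 arrays stood at 3.56, 3.79 and 4.18, above the M arrays at 3.08, 3.04 and 3.30, a difference of 0.70 ± 0.21 (SE). DB#1 and DB#2 overlapped M for Cbr3, with differences of 0.20 ± 0.20 and 0.08 ± 0.21. D differed from M by 0.29 ± 0.20 and overlapped it through replicate 3 (3.05) alone. The other 3 D arrays, with a mean of 3.55 ± 0.08 (SD), were above every M array, with a difference of 0.41. Over the 17 melanoma arrays, D replicate 3 included, the levels of Cbr1 and Cbr3 had a Pearson correlation of 0.73. This is a description in which the arrays share lines and slides. The myeloid lines split this neighbouring pair. Cbr1 was well above background on all 7 myeloid arrays, from -0.82 to 0.22, whereas the Cbr3 probe was well above background on none of the 7, at -6.79 to -6.21. J365 and M0 overlapped for both genes.

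Akr1b8, a fibroblast growth factor-regulated aldose reductase-like protein that reduces lipid aldehydes, was highest in DB#2, at 5.84, 6.07 and 6.07. The M arrays were at 5.44, 5.52 and 5.69, all below those of DB#2, and the difference was 0.44 ± 0.22 (SE). D ranged from 4.75 on replicate 3 to 5.83 on replicate 1, so DB#2 was above D on every array. The margin was thin, with 5.835 on the lowest DB#2 array and 5.830 on the highest D array. The mean difference was 0.72 ± 0.21 (SE), or 0.55 without D replicate 3. D, DB#1 and DB#3 overlapped M, and the difference of D was -0.28 ± 0.21, or -0.11 without replicate 3. Without scaling the arrays, DB#2 less M was 0.68, and in that setting the median of all genes tested moved by 0.23.

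Akr1b3, aldose reductase, which turns glucose into sorbitol, was lowest in M among the melanoma lines, with a mean of 5.46 ± 0.17 (SD, n = 3) against 5.60 ± 0.37 in D, 5.78 ± 0.14 in DB#1, 5.84 ± 0.05 in DB#2 and 5.76 ± 0.24 in DB#3. The DB#1 and DB#2 arrays lay above those of M, with differences of 0.32 ± 0.20 (SE) and 0.39 ± 0.21, while DB#3 overlapped M. D overlapped M through replicate 3 (5.08) alone, with a difference of 0.14 ± 0.20, or 0.31 without that array, when all 3 other D arrays were above M. On the second probe D, DB#2 and DB#3 overlapped M. Akr1b3 and Akr1b8 were well above background on every myeloid array on which they were measured, and J365 and M0 overlapped (log2 differences of 0.01 ± 0.20 and -0.17 ± 0.22). The Akr1b8 spot of M0 replicate 2 carried an outlier flag and was left out, which leaves 3 M0 arrays for that gene.

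For the 3 remaining dehydrogenases the arrays of every dormant melanoma line overlapped those of M. On the second probes of Dhrs3 and Dhrs4 the overlap of D with M rested on D replicate 3. Without it the other D arrays were all below M for Dhrs3 (-0.40) and all above M for Dhrs4 (0.51) on those probes. Dhrs4, a peroxisomal reductase of retinal and other carbonyls, differed from M by 0.07 ± 0.27 (SE) in DB#2 to 0.31 ± 0.27 in DB#3, and its second probe, for another transcript, gave 0.18 to 0.38. In D the first probe gave 0.15 ± 0.26, or 0.30 without replicate 3. Dhrs7, a membrane-bound reductase of steroids and retinoids, differed from M by -0.30 ± 0.35 in D (-0.09 without replicate 3) to -0.05 ± 0.35 in DB#1. Dhrs3, which reduces retinal to retinol and so limits retinoic acid, spread most within lines. In DB#2 its 3 arrays were at 0.63, 2.13 and 2.53, and in D they ran from 0.51 to 1.98, so that its SD within melanoma lines reached 1.00. Against that spread its differences from M ran from -0.56 ± 0.50 to -0.16 ± 0.53, with overlap in every line on this probe. The difference of D was -0.51 ± 0.50, or -0.50 without replicate 3. On J365 the same gene stood at 2.83, 2.98 and 1.93 against 2.35, 2.06, 1.92 and 0.42 in M0, again with overlap.

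**Figure D2:**
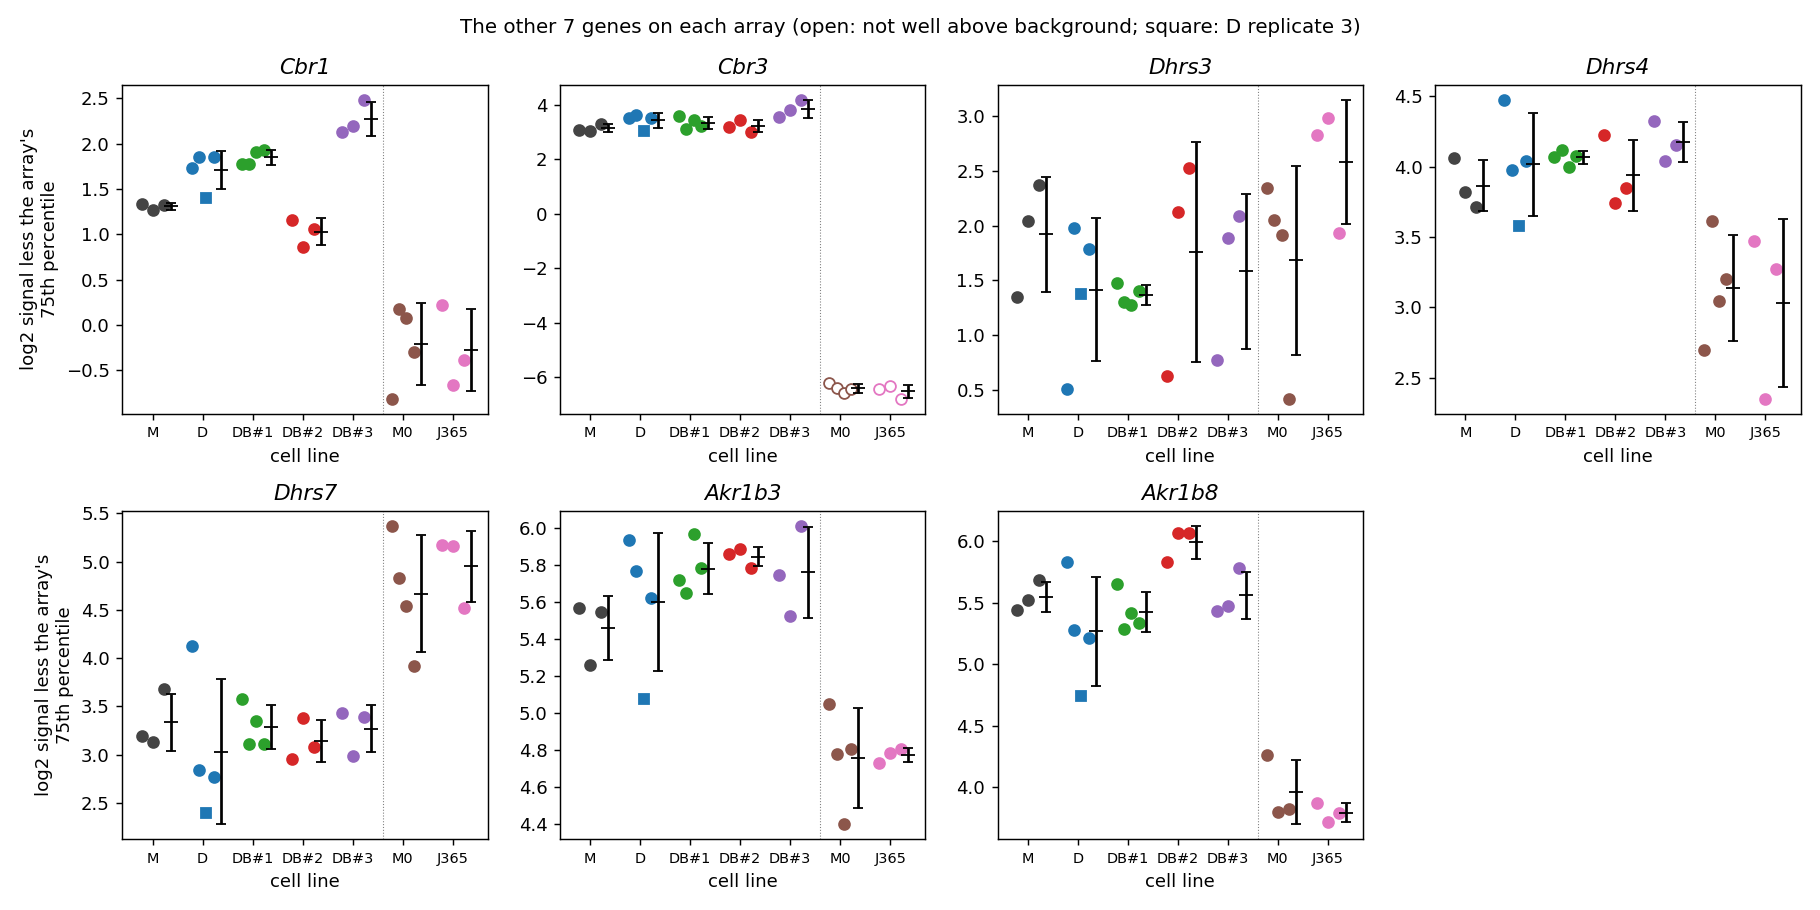
The same plot for the other 7 genes, with log2 signal less the array's 75th percentile on the vertical axis and cell line on the horizontal axis; open points are not well above background, the square is D replicate 3 and bars give mean ± SD. Cbr1 and Cbr3 are highest in DB#3, Cbr3 is open on all 7 myeloid arrays, and Dhrs3 spreads widely within lines.

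Set beside all genes, the members' counts read as follows, and since their choice used these same contrasts nothing is drawn from them. In D against M, 2 of the 10 genes passed the threshold used across the array (adjusted p under 0.05 in limma), where 2.23% of 20183 genes tested did, and 4 of 10 had arrays that did not overlap between the lines, where 8.45% did. Without D replicate 3 the latter count was 6 of 10, where 19.1% of all genes did not overlap, the added genes being Cbr3 and Akr1b3. For DB#1 the counts were 3 of 10 past the threshold (3.03% of all genes) and 5 of 10 without overlap (20.1%), and Cbr2 no longer passed without M replicate 1. For DB#2 they were 3 of 10 (2.68%) and 6 of 10 (21.7%). For DB#3 they were 3 of 10 (2.33%) and 5 of 10 (21.2%), and Cbr1 no longer passed when any 1 of the 6 arrays was left out. In DB#2 against D, 0 of 10 genes passed (4.68% of all genes) and 4 of 10 did not overlap (12.6%), or 5 of 10 (22% of all genes) without D replicate 3. Leaving out D replicate 1 took Dhdh and Akr1b8 past the threshold, and leaving out D replicate 3 took Cbr1 past it. In J365 against M0, where Cbr3 could not be tested, 2 of 9 passed (1.25%) and the same number did not overlap (8.47%). The 4 comparisons with M share its 3 arrays.

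**Figure D3:**
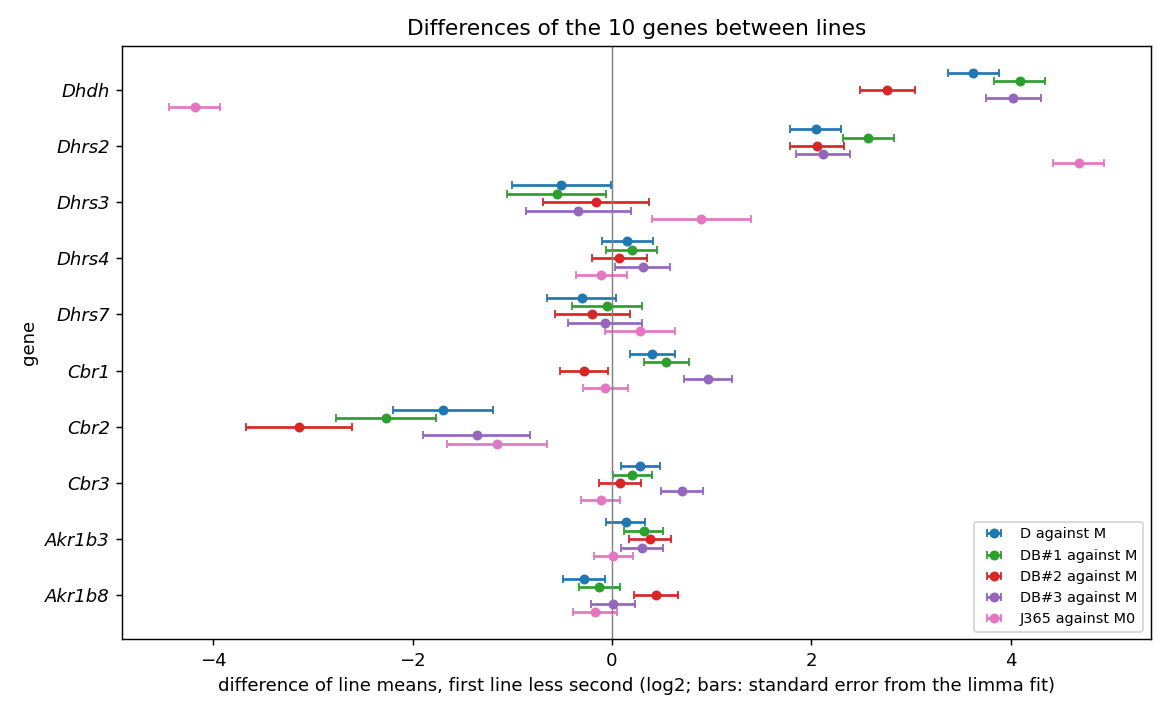
Difference of line means in log2 units (horizontal axis) for each of the 10 genes (vertical axis), with the standard error of the limma fit as bars; colours are the dormant melanoma lines against M and J365 against M0. Dhdh lies at 2.76 to 4.09 against M and at -4.19 in J365 against M0, Dhrs2 lies above 0 in all 5 comparisons and Cbr2 below 0 in all 5.

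By the likeness of their levels over the 17 melanoma arrays, among 2496 genes that varied with an SD of at least 0.5, the 3 genes nearest to Dhdh were Bcar3 (Pearson r 0.97), an adaptor protein, Cgnl1 (0.97), a protein of cell junctions, and Rcn3 (0.97), a calcium-binding protein of the endoplasmic reticulum. Like Dhdh, Bcar3 and Cgnl1 were not well above background on any M array. Nearest to Dhrs2 were Bhlhb9 (0.96), Cyba (0.96), a subunit of the NADPH oxidase, and Rab15 (0.95), a small GTPase of endosomes. Cyba stood at 0.18 ± 0.48 (SD, n = 3) in M, 3.06 ± 0.55 in D (3.29 ± 0.36 without replicate 3) and 3.86 ± 0.27 in DB#3. Nearest to Cbr2 were Gngt2 (0.88), a G protein gamma subunit, Lcp1 (0.87), an actin-bundling protein of leukocytes, and Arap3 (0.87), a GTPase-activating protein. Lcp1 stood at 0.25 ± 0.48 in M and -2.57 ± 0.50 in DB#2, and ranged from -1.70 to 0.78 on the 4 D arrays. These arrays share their lines and slides, and the correlations describe them without a test. D replicate 3 is among the arrays, and no correlation without it is given. Between the members, Dhdh and Dhrs2 had an r of 0.88 over the same arrays, Dhdh and Cbr2 one of -0.61, and Dhrs2 and Cbr2 one of -0.68.

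The wider pathway was followed through 93 other genes with a probe, 50 short-chain dehydrogenases and reductases, 14 aldo-keto reductases, 10 quinone and other reductases with the sequence relatives of Dhdh, and 19 genes of the NRF2 system. In D against M, 1 of 68 tested genes passed the threshold (limma, adjusted p under 0.05), 1.47% beside 2.23% of all genes. It was Bdh2, a cytosolic hydroxybutyrate dehydrogenase, which fell from 3.45 ± 0.20 (SD, n = 3) to 2.60 ± 0.28 (n = 4), by 0.85 ± 0.20 on the log2 scale (SE, limma adjusted p = 0.0247), with values of -0.79, -1.01 and -0.90 on the 3 slides. This call was lost without M replicate 1 (difference -0.78) or M replicate 3 (-0.79) and when D and M were fitted alone. Leaving out D replicate 1 gave 4 called genes, and leaving out replicate 2 or replicate 3 of that line gave 2. The median difference of the tested related genes was -0.13, beside -0.01 for all genes. Medians in the comparisons with D include D replicate 3, the array that stood apart, and none is given without it. The part of that array in this median was not tested, so no shift of these genes in D is drawn from it.

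In DB#1 against M, 0 of 68 related genes passed in limma, beside 3.03% of all genes. Their median difference was -0.04, beside 0.04 for all genes. In DB#3 against M, 0 of 67 passed, beside 2.33% of all genes, with a median of 0.01 beside 0.03. At an unadjusted limma p under 0.05 there were 11 and 8, for which no share of all genes was computed, so nothing is drawn from them. In DB#2 against M, 2 of 67 rose and none fell (2.99% beside 2.68% of all genes), with a median of -0.02 beside 0.02. They were Bdh1, the mitochondrial 3-hydroxybutyrate dehydrogenase of ketone body metabolism (4.90 ± 0.17 against 4.04 ± 0.21 SD, 3 arrays each, difference 0.86 ± 0.20 SE, limma adjusted p = 0.0152), and Rdh13, a mitochondrial retinol dehydrogenase (3.54 ± 0.13 against 2.56 ± 0.25, difference 0.98 ± 0.21, limma adjusted p = 0.00806). A second probe of each gave 0.80 and 0.86. On the 3 slides Bdh1 differed by 0.87, 1.21 and 0.51 and Rdh13 by 1.26, 1.12 and 0.55. The count fell to 0 without M replicate 2 or DB#2 replicate 2, and to 1 without M replicate 3 or DB#2 replicate 1, and Bdh1 was not called when DB#2 and M were fitted alone.

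DB#2 differed from D in 3 of 68 related genes (4.41% beside 4.68% of all genes), with a median of 0.06 beside 0.04 for all genes. Bdh1 was higher in DB#2 here as well, by 1.07 ± 0.18 (limma adjusted p = 0.000891), in a comparison that shares the DB#2 arrays with the previous one. Hsd17b11, a lipid droplet enzyme that oxidises steroids at carbon 17, was higher at 4.56 ± 0.21 (SD, n = 3) against 3.15 ± 0.41 (n = 4), by 1.42 ± 0.24 (limma adjusted p = 0.000709), with 1.26, 1.62 and 1.41 on the slides. Hsd11b1, which regenerates active glucocorticoid, fell by 1.52 ± 0.36 on the log2 scale (limma adjusted p = 0.0167), from -0.49 ± 0.64 to -2.01 ± 0.17, and by 1.70, 1.42 and 1.06 on the slides. The count was 6 without D replicate 1, and the Hsd11b1 call was lost without DB#2 replicate 1 (-1.50) or DB#2 replicate 3 (-1.44). None of the 3 calls held when DB#2 and D were fitted alone.

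In J365 against M0, 2 of 70 related genes passed (2.86% beside 1.25% of all genes), with a median of 0.08 beside 0.02 for all genes. Me1, the cytosolic malic enzyme that supplies NADPH, fell from 4.16 ± 0.72 (SD, n = 4) to 2.32 ± 0.29 (n = 3), by 1.84 ± 0.30 on the log2 scale (SE, limma adjusted p = 0.00104), with -2.30, -1.71 and -1.96 on the slides. Its second probe gave -2.10, and the call was lost when J365 and M0 were fitted alone. Akr1c21, an aldo-keto reductase of steroids, rose by 2.04 ± 0.49 (limma adjusted p = 0.0439) from a level well above background on 3 of the 4 M0 arrays, a call that was lost on leaving out any 1 of the 7 arrays, with differences of 1.89 to 2.12. Of the 19 genes of the NRF2 system, all tested, Me1 was the one called in any of the 6 comparisons between 2 lines.

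Whether the D to M difference was itself different from the J365 to M0 difference was tested for the related genes alone, and 1 of 73 passed (1.37%), where 1.76% of 23162 genes did, with a median of -0.16 beside 0.00 for all genes. That gene was Akr1c21, whose probe was not well above background on any D array and was so on 1 of 3 M arrays. Its D to M difference is therefore not a measured one. The call was lost without D replicate 2, D replicate 4 or any 1 of the 7 myeloid arrays, with differences of -2.93 to -2.66, and the value was -1.86 without M replicate 2. The median of this contrast includes D replicate 3 as well. For the 10 members the contrast was not tested.

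**Figure D4:**
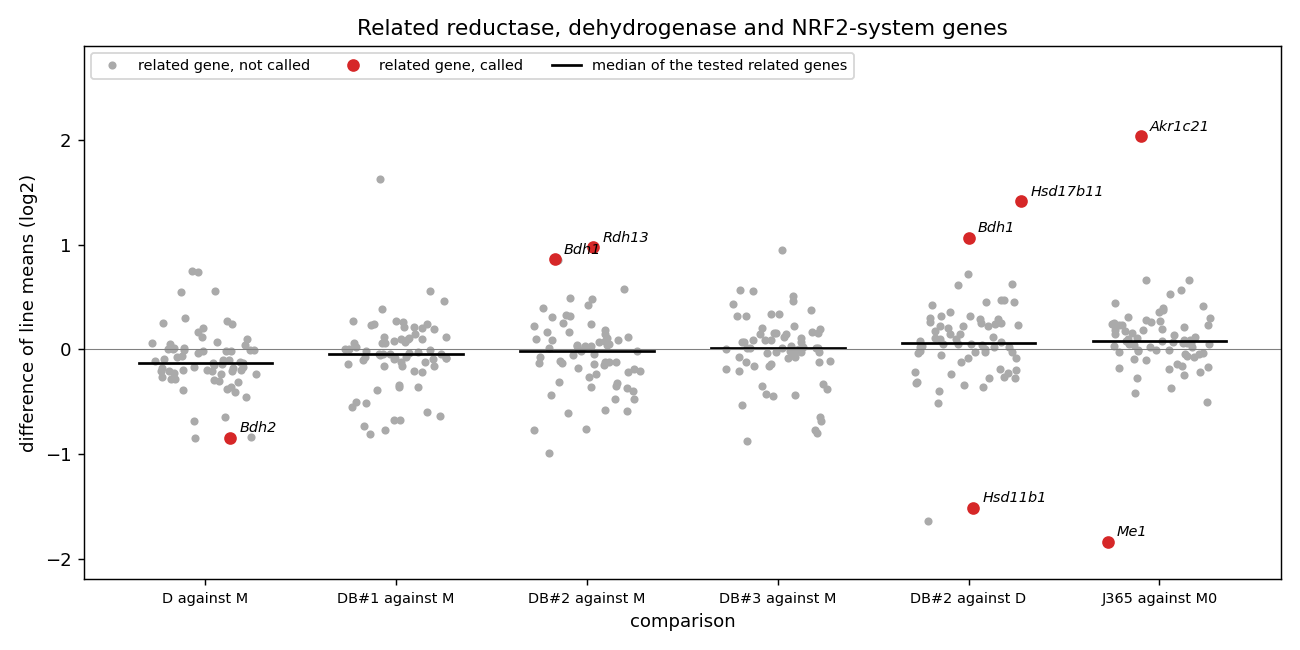
Difference of line means in log2 units (vertical axis) of each tested related gene in the 6 comparisons between 2 lines (horizontal axis); red points passed limma at an adjusted p under 0.05 and carry their symbol, grey points did not, and the black line is the median. The medians lie between -0.13 and 0.08, and no gene is red in DB#1 or DB#3 against M.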

How the data were processed

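RNA of the 24 samples had been labelled with Cy3 and hybridised to 8-array mouse slides, and the submitters' processing notes name Agilent Feature Extraction 10.7.3.1. The intensity values deposited by the authors are background-subtracted processed signals per spot, and the deposited series table held the same intensities, equal in 1511424 of 1511424 values. From the deposited intensities, the log2 signal less the 75th percentile of the array was computed for 56605 probes, of which 32994 matched a symbol. Spots with an outlier flag were left out on that array (117 probes). A gene was represented by its brightest probe on average and tested where that probe was well above background on every array of at least 1 line compared. Linear models (limma 3.58.1 in R 4.3.3, lmFit and eBayes, 1 term per line, all 24 arrays, 17 residual degrees of freedom) were followed by Benjamini-Hochberg adjustment over all genes tested. Calls were made at an adjusted p under 0.05, and the fit was tested on simulated data. Arrays have no read depth, and their number per line limits the precision. The array design carries older mm9 annotation, so no gene coordinates of it were used, and promoters are from RefSeq.

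The 10 genes, the related lists (Akr1c20 has no probe) and the marker lists were chosen with earlier results of these data known. Named are all 10 members, up to 5 called related genes with the largest difference in each comparison, and the 3 genes with the highest correlation for Dhdh, Dhrs2 and Cbr2. Each of the 3 slides held all 7 lines. Same-numbered arrays of DB#1 and M deviated together from their line means (correlations of 0.66, 0.57 and 0.91 over genes). The numbers were therefore taken to pair these 2 lines, though the labels do not say so and the 0.91 pair also shared a slide. The fit with replicate number as a block gave 0 related genes there as well. Its blocks ran over the numbered arrays of all lines, so it does not test the pairing of DB#1 and M alone. The normexp correction used median spot signals, because mean signals were not in the tables used here. Alternatives were quantile normalization, normexp, a percentile over detected probes, no scaling, no filter on dim probes, slide or replicate number as a block, the mean of a gene's probes, fits of the compared lines alone, and leaving out each array.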

Additional observations from a re-analysis of the deposited data

Results flagged for a closer look

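Cbr2 on DB#1 replicate 1 had a log2 level of 0.0231, while the other 3 arrays of the line lay between -1.83 and -1.65, so that the gap took up 0.903 of the whole range of the line. Of 27 groups of 4 arrays examined this was the only one past Dixon's critical value, and chance alone flags about 1 group in 20. The second Cbr2 probe was also highest on this array.

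Dhdh was higher in D than in M on every array (log2 difference 3.63) and lower in J365 than in M0 on every array (-4.19). The difference between these effects was not tested.

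The D to M difference of Akr1c21 was lower than its J365 to M0 difference by 2.85 ± 0.69 on the log2 scale (SE, limma adjusted p = 0.037; value -2.85). The probe was well above background on 1 of 3 M arrays, 0 of 4 D arrays, 3 of 4 M0 arrays and all 3 J365 arrays. The gene was thus tested through J365 alone. Its M arrays stood at -6.54, -6.50 and -3.55, so the D to M part is not a measured difference. The call was also lost without the filter on dim probes.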

How the results depend on the processing

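Of the values of the 10 members under other settings, 590 moved by less than 1 SD of the arrays and 20 by more, and none of the 9 settings or the arrays left out turned the direction of a difference that passed the threshold. Of the values of called related genes under other settings, 80 kept their call and 22 lost it. Leaving out single arrays is not part of these counts, and the calls lost that way are given with the genes above. The counts of called related genes moved as follows. In D against M (1 gene), the count was 3 with quantile normalization, 3 with normexp, 2 with the percentile over detected probes, 0 without scaling, 2 with the slide as a block, 0 with the replicate block, 0 in a fit of the lines compared alone, and 0 to 4 leaving out arrays. In DB#1 against M (0 genes), it was 4 with quantile normalization, 2 with the percentile over detected probes, 1 without scaling, 1 with the slide as a block and 2 in a fit of the lines alone. In DB#2 against M (2 genes), it was 0 to 2 leaving out arrays. In DB#3 against M (0 genes), it was 2 with quantile normalization and 1 with normexp, with the percentile over detected probes, without scaling, with the slide as a block and in a fit of the lines alone. In DB#2 against D (3 genes), it was 7 with quantile normalization, 6 with normexp, 6 with the slide as a block, 0 in a fit of the lines alone and 2 to 6 leaving out arrays. In J365 against M0 (2 genes), it was 1 with the percentile over detected probes, without the filter on dim probes, with the replicate block, in a fit of the lines alone, without any 1 array and on the numbered arrays alone, a setting chosen after seeing the data. For the difference of D less M from J365 less M0 (1 gene), it was 2 with normexp, 0 with the percentile over detected probes, without scaling, without the filter or with these lines alone, and 0 to 2 leaving out arrays. With the replicate block or the numbered arrays 1 gene was called there, in the other direction, so not Akr1c21. The causes of these moves were not tested. Fits of the lines alone also used fewer arrays, and that was not separated from other causes.

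The replicate block gave 4 related genes in DB#2 against D, 2 in DB#2 against M and 0 in DB#1 and DB#3 against M. Outside DB#1 and M, same-numbered arrays did not all deviate together (correlations of -0.79 to 0.85). Over all genes, D against M (451 called) gave 691 with quantile normalization, 719 with the slide as a block, 49 in a fit of the lines alone and 247 to 723 leaving out arrays. DB#2 against M (562) gave 844 with the slide as a block, and DB#3 against M (481) gave 266 with the replicate block. DB#2 against D (968) gave 1868, 1755 and 109 with quantile normalization, slide and the lines alone, and 567 to 1552 leaving out arrays. J365 against M0 (258) gave 513 with quantile normalization and 449 with normexp, and the difference of differences (407) gave 201 with the lines alone. Calls of all genes, higher and lower, were 226 and 225 in D against M, 255 and 436 with quantile normalization and 285 and 98 without scaling. In DB#2 against M 197 of the 562 were lower, and without scaling 669 were higher and 106 lower. In J365 against M0 they were 117 and 141, and 142 and 104 without scaling. With the percentile over detected probes, DB#1 against M went from 360 and 268 to 373 and 418, and DB#2 against D from 589 and 379 to 631 and 691. With quantile normalization the difference of differences went from 252 and 155 to 243 and 292. Without scaling, the median of all genes shifted by 0.18 in D, 0.23 in DB#2 (both against M) and 0.15 in J365 against M0. Levels not well above background, such as Dhdh in M, set the limit on its folds.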

Other observations

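Values of 3 related genes, picked after they were seen, stood apart in comparisons with M that did not pass the limma threshold. Hsd17b11 had a log2 difference from M of -0.84 ± 0.24 (SE, limma adjusted p = 0.0808) in D, -0.68 ± 0.24 in DB#1 and -0.69 ± 0.25 in DB#3, but of 0.58 ± 0.25 in DB#2, the line in which it was called against D. The comparisons share the 3 M arrays. Bdh2, called in D, stood at -0.80 ± 0.21 (limma adjusted p = 0.0531) in DB#3 and at -0.55 ± 0.20 in DB#1. Nqo1, a quinone reductase and NRF2 target, stood at -4.19 ± 0.71 (SD, n = 3) in M and -2.56 ± 1.02 (n = 4) in DB#1. The difference was 1.63 ± 0.57 (SE, limma adjusted p = 0.178), and it was 1.08, 3.89 and 0.43 on the 3 slides. Its probe was not well above background on every M array, which limits this difference. The 3.89 rests on DB#1 replicate 1, the array flagged for Cbr2.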
